A study of Mus musculus with 12 samples.

Results

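The sarcomere and Z-disc structural genes are 33 genes that encode the filaments of the cardiac contractile unit, the discs and bands that anchor them, the intermediate filaments around them and factors that assemble them. They were chosen by gene symbol in GENCODE M21, each symbol matched 1 Ensembl gene, and they are 33 of the 26921 genes in the count table. Left ventricular RNA of mice aged 16 weeks was sequenced, with 6 WT and 6 cmGch1 KO libraries. WT mice were Gch1 flox/flox littermates without Cre. The cmGch1 KO mice were Gch1 flox/flox and carried 1 copy of Cre recombinase driven from the cardiomyocyte promoter α-MHC, so that endothelial cells, fibroblasts and other cells of the ventricle keep Gch1 and the effects of Cre and of the deletion cannot be told apart. Gch1 encodes GTP cyclohydrolase, an enzyme required for de novo synthesis of tetrahydrobiopterin (BH4). The comparison asks which transcripts of the ventricle differ when Gch1 is deleted in cardiomyocytes. By the paper's measurements BH4 was reduced but not lost in these cardiomyocytes, and not significantly changed in the whole heart. In the text a level is given in cpm (counts scaled to a common library size with edgeR's TMM factors), and the fold change is the log2 ratio of cmGch1 KO to WT.

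The sarcomere is the repeating unit of striated muscle. Thin filaments of actin, tropomyosin and the troponin complex are anchored at the Z-disc by α-actinin, myosin thick filaments are cross-linked at the M-band by myomesins, and titin spans from the Z-disc to the M-band. In the heart the Z-disc also links to desmin intermediate filaments and to the costameres at the cell surface, and mutations in many of these genes cause inherited cardiomyopathy.

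None of the 33 genes passed an FDR of 0.05 between the genotypes (quasi-likelihood test of edgeR, adjusted by Benjamini-Hochberg over the 11225 genes tested), where 1.12% of all tested genes passed, 0.677% with more and 0.445% with less transcript in cmGch1 KO hearts. The gene nearest to it was Synpo2l, which encodes an actin-associated Z-disc protein, with a fold change of 0.50 on the log2 scale (adjusted p = 0.107). At an unadjusted p under 0.05 there were 7 of the 33 genes (21.2%), where 11.5% of all tested genes met that threshold. Of these, Synpo2l, Flnc, Ldb3, Pdlim5 and Des had more transcript in cmGch1 KO hearts (15.2% of the 33, beside 7.01% of all tested genes) and Myot and Cmya5 had less (6.06%, beside 4.51%). By the Wald test of DESeq2, 1 of the 33 genes passed, Synpo2l (adjusted p = 0.0215), where 3.32% of all tested genes did. With 1 surrogate variable as a covariate 3 passed, Synpo2l, Myl3 and Cmya5, where 5.67% of all tested genes did. Over 25 alternative settings the adjusted p of Synpo2l ranged from 0.0128 to 0.499, that of Cmya5 from 0.00059 to 0.885 and that of Myl3 from 0.035 to 0.957. With limma on the deposited normalized values 0 of the 33 passed, beside 1.09% of all tested genes, and 5 had an unadjusted p under 0.05, beside 11.4%. By the exact permutation test on cpm, two-sided and unadjusted, 7 of the 33 genes had p under 0.05, namely Synpo2l, Myot, Ldb3, Actn2, Tnnt2, Des and Mybpc3, where 11.8% of all tested genes did.

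All 33 genes passed the expression filter, a cpm over 3 in at least 6 libraries, and each library held between 247 and 340677 counts of each. The fold changes ran from -0.35 to 0.50 on the log2 scale, with 18 above 0 (54.5%, beside 46.7% of all tested genes) and 15 below, and their median was 0.02, beside -0.01 over all tested genes. Their median size without sign was 0.11, with a median standard error of 0.12, beside 0.09 and 0.11 over all tested genes. For 28 of the 33 genes (84.8%) the 95% interval of the fold change lay within 1.5-fold either way, beside 88.9% of all tested genes. The 5 exceptions were Tcap, Flnc, Synpo2l, Cmya5 and Fhl1. For none of the 33 genes did the 6 cmGch1 KO libraries separate from the 6 WT libraries, a separation that 1.87% of all tested genes showed.

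The labelled genotype and tissue were checked in the same libraries. Gch1 had a lowest, median and highest level of 9.27, 10.8 and 12.1 cpm in WT and 3.92, 5.56 and 6.32 cpm in cmGch1 KO libraries, which do not overlap (log2 fold change -0.96 with a standard error (SE) of 0.11, edgeR adjusted p = 0.000688). Totals ranged from 19921398 to 37917806 counts. The replicates 2 and 3 of cmGch1 KO stood apart from the other 10 libraries. Only they had Xist, the transcript that marks an inactive X chromosome, over 10 cpm, and mitochondrial genes took 14.9% and 16.1% of their counts, beside 18.3% to 22.9% in the others. The labels give no sex, and no WT library had Xist over that level. What goes with Xist and what goes with genotype therefore cannot be fully told apart. The 9 cardiomyocyte markers summed to 73441 ± 2027 cpm (WT) and 66174 ± 3878 cpm (cmGch1 KO; SD, n = 6; two-sided exact permutation p = 0.00649), with 0 of 9 past the FDR and 0 of 9 at an unadjusted p under 0.05. The sum rests on its most abundant genes, with Myh6 at 23054 ± 2879 and 20302 ± 4386 cpm. Mb ranged from 11243 to 16852 cpm in WT and from 9628 to 15404 cpm in cmGch1 KO libraries. Atp2a2 ranged from 12229 to 16696 cpm and from 9625 to 16003 cpm. Only Actc1 (8550 ± 466 and 9189 ± 1004 cpm) and Slc8a1 were higher on average in cmGch1 KO libraries, and all the other markers of this list were lower. Macrophage markers summed to 153 ± 14.5 cpm and 188 ± 18.4 cpm (two-sided exact permutation p = 0.00649), fibroblast markers to 950 ± 114 cpm and 1076 ± 77.1 cpm (two-sided exact permutation p = 0.0563), and the skeletal muscle markers to 2.75 ± 0.176 cpm and 5.87 ± 1.63 cpm (SD, n = 6 each). At an unadjusted p under 0.05, 6 of 6 tested macrophage markers and 3 of 8 fibroblast markers were higher in cmGch1 KO. Of all tested genes 7.01% were, and 0 of these markers passed the FDR. Of the 8 skeletal muscle markers 0 reached the level needed for the test, Atp2a1 gave most of the difference, and the groups overlapped without it (1.88 ± 0.329 cpm and 2.75 ± 0.91 cpm). The skeletal myosin Myh4 had 0 counts in all 12 libraries. The part of these marker levels in the values that follow was not tested. In whole ventricle, fewer cells of a type and less RNA per cell cannot be told apart.

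Promoters of muscle genes often hold a CArG box, which serum response factor binds, or a site for MEF2, and 6 such motifs were sought on both strands in the RefSeq promoter windows of build GRCm38.p6, each 250 bases before to 50 bases after a start site. Of the 33 genes 28 had a window, 41 windows in all, and Tcap, Nexn, Cryab, Myot and Myom2 had none. Both windows of Myl2 lay 8227 and 7762 bases from its nearest GENCODE transcript start, so the bases before that start were not searched. Windows of Nebl lay 2194 and 60878 bases from the nearest such start. These windows are counted among the 41. A CArG box was found in 8 of the 41 windows (19.5%), beside 1.63% of all 32851 windows, and the 8 windows belong to Myl3, Ldb3, Nebl, Myom1, Fhl1 and Fhl2. A MEF2 site was found in 5 of the 41 windows (12.2%), beside 3.19% of all windows, in Ttn, Mybpc3, Synpo2l and Fhl2. The other letters sought were TATAAA (17.1% of the 41 windows, 13.6% of all), CATTCC (29.3% and 14.7%), CAGCTG (26.8% and 16.3%) and CACGTG (9.76% and 7.15%). The windows of 1 gene can overlap, as both of Ldb3 and both of Flnc do, so that the same letters are counted again. A match is a description of these letters and not a bound site. The 250 bases before the start site are shown for Synpo2l, the gene nearest to the threshold, for Myl3, 1 of the most abundant genes of the set, and for Fhl2, whose windows hold both motifs. All lie 5′ to 3′ on the strand of the gene.

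The capitals mark the MEF2 site in the windows of Synpo2l on the minus strand, at chr14:20664575-20664824 and chr14:20668355-20668604. In that of Myl3 on the plus strand, at chr9:110763428-110763677, they mark the CArG box. In those of Fhl2 on the minus strand, at chr1:43163962-43164211 and chr1:43196762-43197011, they mark the CArG box of each, and in the latter also a MEF2 site that overlaps a TATAAA on the other strand.
Synpo2l, inner start: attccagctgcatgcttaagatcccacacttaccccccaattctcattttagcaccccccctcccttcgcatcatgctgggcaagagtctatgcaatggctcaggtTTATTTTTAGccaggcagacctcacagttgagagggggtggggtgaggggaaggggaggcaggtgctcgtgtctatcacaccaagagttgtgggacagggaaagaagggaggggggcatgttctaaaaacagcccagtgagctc
Synpo2l, outer start: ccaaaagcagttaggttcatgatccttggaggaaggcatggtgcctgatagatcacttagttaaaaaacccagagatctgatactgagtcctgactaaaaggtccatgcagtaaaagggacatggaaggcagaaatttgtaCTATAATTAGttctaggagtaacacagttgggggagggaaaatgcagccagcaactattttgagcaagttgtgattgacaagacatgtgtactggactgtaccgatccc
Myl3: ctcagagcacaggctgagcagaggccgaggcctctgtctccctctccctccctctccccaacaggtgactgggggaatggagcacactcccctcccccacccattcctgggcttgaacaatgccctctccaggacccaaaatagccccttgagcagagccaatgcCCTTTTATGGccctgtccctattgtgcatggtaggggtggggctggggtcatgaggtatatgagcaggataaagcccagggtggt
Fhl2, inner start: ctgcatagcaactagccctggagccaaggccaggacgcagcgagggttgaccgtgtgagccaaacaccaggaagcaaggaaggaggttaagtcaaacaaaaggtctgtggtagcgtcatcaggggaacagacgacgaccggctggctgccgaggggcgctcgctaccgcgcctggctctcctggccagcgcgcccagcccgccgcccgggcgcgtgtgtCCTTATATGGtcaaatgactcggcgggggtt
Fhl2, outer start: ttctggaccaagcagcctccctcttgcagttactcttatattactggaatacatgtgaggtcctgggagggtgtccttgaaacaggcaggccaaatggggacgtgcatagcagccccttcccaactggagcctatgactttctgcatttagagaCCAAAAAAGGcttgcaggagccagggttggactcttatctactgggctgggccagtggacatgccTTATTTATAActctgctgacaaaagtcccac

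Levels per length, in RPKM over the union of annotated exons, differed widely within the set. The ventricular light chains led, with Myl2, the regulatory light chain of myosin, at 3522 ± 671 RPKM (SD, n = 6) and Myl3, the essential light chain, at 2773 ± 355 RPKM in WT. Tnnc1, the calcium-binding subunit of troponin, followed at 2250 ± 365 RPKM. The ranges of these neighbours overlapped over the WT libraries, whereas the lowest WT library of Tnnc1 (1874 RPKM) lay above the highest of Tpm1 (1628 RPKM), which encodes α-tropomyosin. Below Tpm1, the levels of Tnnt2, Tcap, Fhl2, Mybpc3 and Cryab ran from 1109 to 807 RPKM on average and overlapped their neighbours in that order. A further group of Des, Actn2 and Lmod2 ran from 519 to 421 RPKM, and from Nexn (165 RPKM) to Smpx (94.7 RPKM) 7 genes followed in overlapping steps.

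The least abundant genes per length were Ttn (8.65 ± 2.03 RPKM, SD, n = 6), Pdlim3 (2.74 ± 0.405 RPKM) and Synm (1.62 ± 0.368 RPKM), which did not overlap each other over the WT libraries. Synm encodes synemin, an intermediate filament protein that joins desmin, and Pdlim3 a PDZ and LIM domain protein of the Z-disc. The exon union of Ttn spans 116825 bases, so that its level per length is low although it had 1011 ± 237 cpm in WT (SD, n = 6). The order in cmGch1 KO hearts began with the same 3 genes, at 3018 ± 726 RPKM for Myl2, 2418 ± 460 RPKM for Myl3 and 2417 ± 385 RPKM for Tnnc1.

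**Figure D1:**
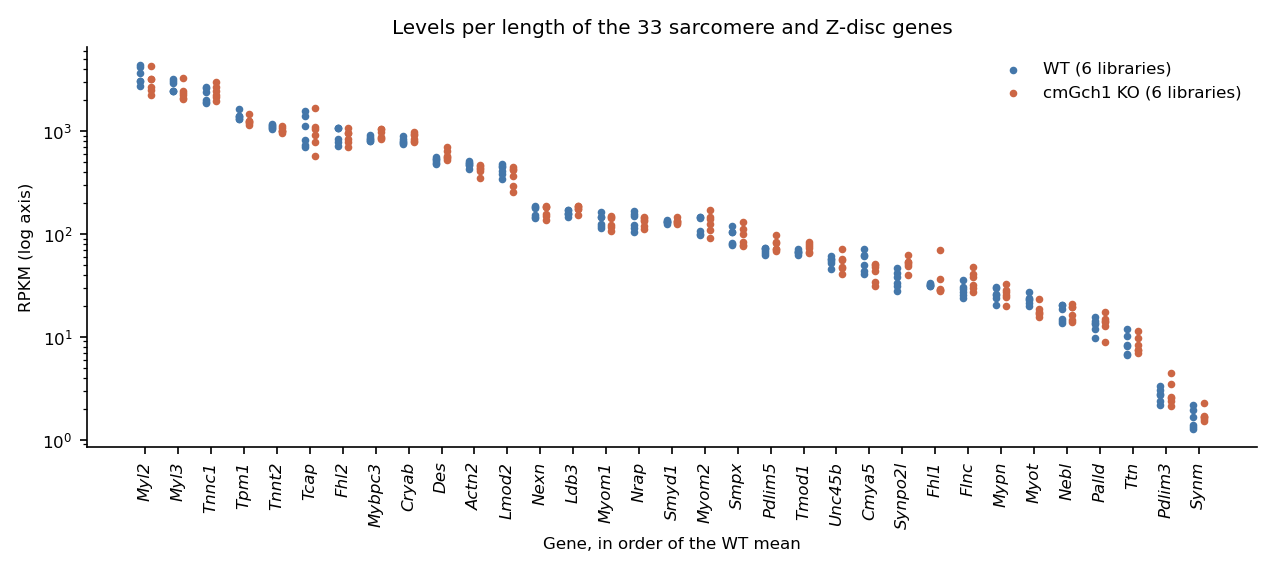
Levels per length (RPKM, log axis) of the 33 genes in order of the WT mean, with 1 point per library and the groups side by side. Myl2, Myl3 and Tnnc1 stand at the top (3522, 2773 and 2250 RPKM on average in WT), Pdlim3 and Synm at the bottom (2.74 and 1.62 RPKM), and the points of the genotypes overlap for every gene.

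The 33 genes together took 5.29 ± 0.248% of all counts in WT and 5.32 ± 0.273% in cmGch1 KO libraries (SD, n = 6), less than the spread between them (two-sided exact permutation p = 0.855). Of the counts outside mitochondrial genes they took 6.70 ± 0.196% and 6.59 ± 0.187% (two-sided exact permutation p = 0.329), so that the sign of the difference turns with that choice. The 5 genes with most counts, Tpm1, Tnnt2, Myl2, Myl3 and Mybpc3, held 62.1 ± 2.29% of the counts of the set in WT and 59.6 ± 2.51% in cmGch1 KO libraries (two-sided exact permutation p = 0.108).

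The spread within a genotype varied between the genes. Over the WT libraries the coefficient of variation had a median of 13.4% for the 33 genes, beside 12.3% for all tested genes. It was lowest for Smyd1, a histone methyltransferase that also takes part in myosin assembly (2.66%), and for Fhl1, a LIM-only protein that binds titin (2.79%). The highest was that of Tcap, which encodes telethonin, the cap that joins titin ends at the Z-disc (35.1%), ahead of Ttn (23.5%) and Synm (22.8%). Tcap had levels of 671, 919 and 1499 cpm in WT and 546, 927 and 1602 cpm in cmGch1 KO libraries (lowest, median and highest). Its extremes were WT replicates 6 and 4 and cmGch1 KO replicates 5 and 4, and its 95% interval, -0.61 to 0.48 on the log2 scale, was the widest of the set.

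Genes of the thick filament and titin showed 0 of 4 at an unadjusted p under 0.05, beside 11.5% of all tested genes. Myl2 had levels of 5394, 6571 and 8535 cpm in WT and 4339, 5737 and 8311 cpm in cmGch1 KO libraries (lowest, median and highest), with a log2 fold change of -0.22 (SE 0.16). Myl3 had levels of 4986, 5536 and 6593 cpm in WT and 4209, 4693 and 6751 cpm in cmGch1 KO libraries, with a log2 fold change of -0.20 (SE 0.12). For both, 5 of 6 cmGch1 KO libraries lay below the WT median, and the exception, cmGch1 KO replicate 1, had the highest level of its group. Mybpc3, the cardiac myosin-binding protein C that brakes cross-bridge cycling, had levels of 3362, 3490 and 3807 cpm in WT and 3519, 3890 and 4334 cpm in cmGch1 KO libraries, with a log2 fold change of 0.16 (95% interval -0.0039 to 0.32, adjusted p = 0.453 by edgeR). All 6 cmGch1 KO libraries were above the WT median for Mybpc3, 3 of them above the highest WT library. Ttn showed a log2 fold change of -0.02 (95% interval -0.35 to 0.32), with levels of 771, 960 and 1380 cpm in WT and 812, 923 and 1319 cpm in cmGch1 KO libraries.

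The thin filament and its length control also had 0 of 5 at an unadjusted p under 0.05, beside the same 11.5%. Tpm1 had levels of 8470, 8919 and 10560 cpm in WT and 7403, 8112 and 9494 cpm in cmGch1 KO libraries, with a log2 fold change of -0.15 (SE 0.08, unadjusted p = 0.0822 by edgeR). Of its cmGch1 KO libraries 5 of 6 lay below the lowest WT library, and cmGch1 KO replicate 1 lay above the WT median. Tnnt2, the tropomyosin-binding subunit of troponin, had a log2 fold change of -0.11 (95% interval -0.25 to 0.03), with 4 of 6 cmGch1 KO libraries below the lowest WT level. Tnnc1 had levels of 1951, 2277 and 2789 cpm in WT and 2031, 2440 and 3131 cpm in cmGch1 KO libraries, with a log2 fold change of 0.10 (SE 0.12).

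Tmod1 caps the pointed end of the thin filament and Lmod2 lengthens it there. Tmod1 lay at 264 ± 11.7 cpm in WT, against 292 ± 29.1 cpm in cmGch1 KO hearts (SD, n = 6; log2 fold change 0.14, standard error 0.07), and Lmod2 at 832 ± 101 cpm and 727 ± 156 cpm (log2 fold change -0.19, standard error 0.14). The log2 ratio of Lmod2 to Tmod1 within a library was 1.65 ± 0.22 in WT and 1.29 ± 0.45 in cmGch1 KO libraries (SD, n = 6), and the groups overlapped. The cmGch1 KO library with the lowest ratio was replicate 2, at 0.60, and the other Xist-positive library, replicate 3, had the next lowest level of Lmod2 (574 cpm, beside 502 cpm in replicate 2). Without these 2 libraries the log2 fold change of Lmod2 was -0.02 (standard error 0.10) and that of Tmod1 0.06 (standard error 0.07). Exons of Tmod1 share 32.6% of their bases with Tstd2 on the opposite strand, which had 11.4 to 14.6 cpm, and the strand setting of the counting is not given in the sources used here.

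Of the 7 genes of the Z-disc core 3 had an unadjusted p under 0.05, beside 11.5% of all tested genes. Each had more transcript in cmGch1 KO hearts, and a difference between the roles was not tested. Synpo2l had levels of 128, 166 and 216 cpm in WT and 184, 241 and 292 cpm in cmGch1 KO libraries. Of its cmGch1 KO libraries 5 of 6 were above the highest WT library, and the sixth, replicate 1, was above the WT median. The difference was 1.41-fold (log2 fold change 0.50, standard error 0.13, 95% interval 0.21 to 0.78, adjusted p = 0.107 by edgeR), and the exact permutation test over the libraries gave an unadjusted p of 0.00866, where 0.00216 is the smallest that 6 against 6 allow. Without cmGch1 KO replicate 1, the lowest of its group for Synpo2l, the log2 fold change was 0.56 and the edgeR adjusted p 0.039. In that fit 207 of 11174 tested genes passed the FDR, beside 126 of 11225 with all libraries. Leaving out the lowest library of the higher group raises the difference by construction, so this fit is not separate support. Synpo2l lies on the minus strand at chr14:20658946-20668354 (GRCm38, as are all coordinates).

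Flnc encodes filamin C, an actin cross-linker that ties the Z-disc to the sarcolemma. The gene lies at chr6:29433256-29461883. Its levels were 224, 264 and 336 cpm in WT and 256, 329 and 447 cpm in cmGch1 KO libraries (log2 fold change 0.32 ± 0.13 SE, edgeR adjusted p = 0.346), with 3 of 6 cmGch1 KO libraries above the highest WT library. Over the 25 alternatives its adjusted p ranged from 0.0378 to 0.852. Ldb3 encodes ZASP, or cypher, a PDZ-LIM protein that binds α-actinin, at chr14:34526603-34588682. Its levels were 892, 967 and 1034 cpm in WT and 937, 1099 and 1148 cpm in cmGch1 KO libraries (log2 fold change 0.15 ± 0.07 SE, edgeR adjusted p = 0.388). Of its cmGch1 KO libraries 5 of 6 were above the highest WT level, with replicate 1 alone below the WT median.

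Actn2, the α-actinin of cardiac Z-discs, had levels of 1631, 1813 and 1946 cpm in WT and 1343, 1648 and 1759 cpm in cmGch1 KO libraries. All 6 cmGch1 KO libraries were below the WT median, 2 of them below the lowest WT library (log2 fold change -0.16, standard error 0.08, unadjusted p = 0.0515 and adjusted p = 0.437 by edgeR). Nexn, the actin-binding nexilin, had a log2 fold change of -0.00 (95% interval -0.22 to 0.21), and Nebl, the nebulin relative nebulette, 0.04 (95% interval -0.25 to 0.33). Tcap had a log2 fold change of -0.06 (standard error 0.25).

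Among the palladin family and the PDZ-LIM proteins of the Z-disc, Myot and Pdlim5 met the unadjusted threshold, in opposite directions. Myot encodes myotilin, which bundles actin and binds α-actinin. Its levels were 44.0, 51.0 and 60.1 cpm in WT and 34.6, 37.8 and 51.7 cpm in cmGch1 KO libraries (log2 fold change -0.35, standard error 0.10, 95% interval -0.57 to -0.13, adjusted p = 0.147 by edgeR). Of its cmGch1 KO libraries 5 of 6 were below the lowest WT library, and the exception was replicate 2, at 51.7 cpm. Without cmGch1 KO replicate 2 the log2 fold change was -0.44 and the adjusted p 0.0397 by edgeR, in a fit where 84 of 11164 tested genes passed. Leaving out the highest library of the lower group widens the difference by construction, so this fit is not separate support. Myot passed in only 1 of the 25 alternatives, and over them its adjusted p ranged from 0.0397 to 0.338.

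Pdlim5 encodes ENH, which tethers kinases to the Z-disc, at chr3:142239590-142395696. It had levels of 552, 619 and 649 cpm in WT and 612, 676 and 863 cpm in cmGch1 KO libraries (log2 fold change 0.20 ± 0.09 SE, edgeR adjusted p = 0.406). The relatives of myotilin had intervals on both sides of 0, with log2 fold changes of 0.02 (-0.23 to 0.27) for Mypn, which encodes myopalladin, and 0.07 (-0.24 to 0.37) for Palld, which encodes palladin. Pdlim3, at 10.8 to 22.6 cpm over all 12 libraries, had 0.08 (95% interval -0.27 to 0.44), and its highest level was that of cmGch1 KO replicate 2. Without the 2 Xist-positive libraries its log2 fold change was -0.19 (standard error 0.12), so that the direction turned.

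The M-band genes showed no difference beyond the spread between libraries. Myom1, which encodes myomesin, had levels of 1196, 1418 and 1692 cpm in WT and 1119, 1385 and 1578 cpm in cmGch1 KO libraries (log2 fold change -0.05, 95% interval -0.29 to 0.18). Myom2, which encodes M-protein, had levels of 867, 1109 and 1298 cpm in WT and 800, 1171 and 1502 cpm in cmGch1 KO libraries (log2 fold change 0.08, 95% interval -0.26 to 0.41). Their log2 ratio within a library, Myom2 to Myom1, was -0.39 ± 0.15 in WT and -0.27 ± 0.22 in cmGch1 KO hearts (SD, n = 6). The log2 ratio of Myl2 to Myl3 was 0.27 ± 0.11 and 0.24 ± 0.16. In all 9 ratios between partner genes that were computed, the genotypes overlapped.

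Around the myofibril, Des and Cmya5 met the unadjusted threshold in opposite directions. Des encodes desmin, the intermediate filament protein that links neighbouring Z-discs, at chr1:75360329-75368579. Its levels were 1800, 1976 and 2102 cpm in WT and 1955, 2113 and 2618 cpm in cmGch1 KO libraries (log2 fold change 0.18 ± 0.08 SE, edgeR adjusted p = 0.407). Synm had levels of 10.1, 12 and 17.3 cpm in WT and 11.9, 13.1 and 17.8 cpm in cmGch1 KO libraries (log2 fold change 0.09, standard error 0.14). Cmya5 encodes myospryn, a large protein of the costamere and Z-disc periphery that binds desmin, on the minus strand at chr13:93040713-93144724. Its levels were 483, 657 and 837 cpm in WT and 366, 539 and 602 cpm in cmGch1 KO libraries (log2 fold change -0.35 ± 0.16 SE, edgeR adjusted p = 0.393). All 6 cmGch1 KO libraries were below the WT median for Cmya5, and 2 were below the lowest WT library. An annotated gene on the opposite strand, A630019I02Rik, shares 20.7% of the exon bases of Cmya5.

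Cryab, the small heat shock protein αB-crystallin that binds desmin and titin, had 1194 ± 82.9 cpm in WT, against 1294 ± 117 cpm in cmGch1 KO hearts (SD, n = 6; log2 fold change 0.12, 95% interval -0.04 to 0.28). Its exons share 17.0% of their bases with Hspb2 on the opposite strand, which had 56.7 to 89.9 cpm. Smpx, a small X-linked protein of the costamere, had a log2 fold change of 0.04 (95% interval -0.28 to 0.36).

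Of the assembly factors, Unc45b is a chaperone for myosin, Smyd1 works with it, and Nrap scaffolds actin at the intercalated disc. Smyd1 had the narrowest interval of the set, with 599 ± 15.9 cpm in WT, against 603 ± 33.1 cpm in cmGch1 KO hearts (SD, n = 6; log2 fold change 0.01, 95% interval -0.11 to 0.13). The log2 fold changes of Unc45b and Nrap were -0.05 (95% interval -0.30 to 0.21) and -0.03 (95% interval -0.28 to 0.21).

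The LIM-only genes Fhl1 and Fhl2 had log2 fold changes of 0.19 (standard error 0.20) and -0.06 (standard error 0.13). Fhl2 had levels of 1368, 1796 and 2048 cpm in WT and 1317, 1713 and 2031 cpm in cmGch1 KO libraries. Fhl1, at chrX:56731787-56793346, lay between 116 and 124 cpm in WT, while cmGch1 KO replicates 2 and 3 had 259 and 136 cpm. The other 4 cmGch1 KO libraries had 103 to 109 cpm, all below the lowest WT library. Without the 2 Xist-positive libraries the log2 fold change of Fhl1 was -0.17 (standard error 0.06, unadjusted p = 0.00951, adjusted p = 0.412 by edgeR), so that its direction turned; over the 25 alternatives the adjusted p ranged from 0.412 to 0.952. This gene was singled out after its values were seen.

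**Figure D2:**
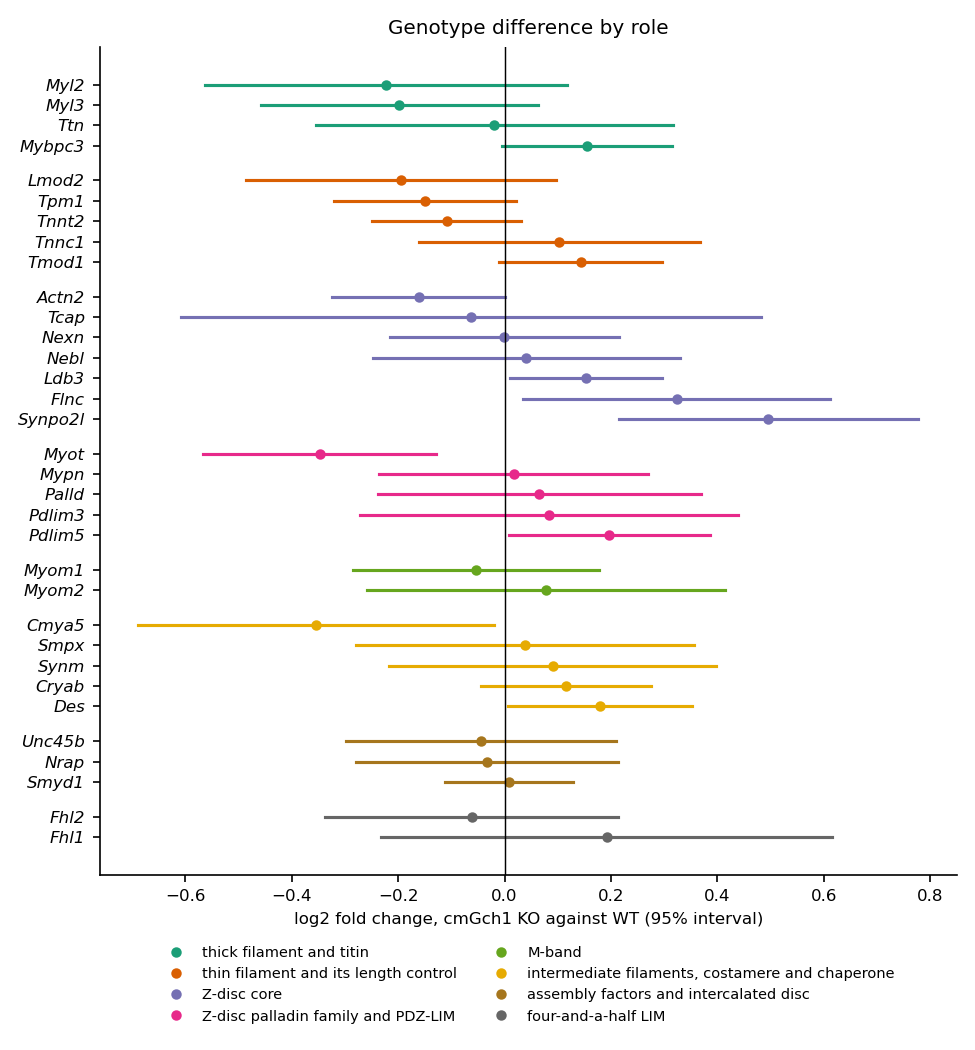
Genotype difference (log2 fold change, KO over WT) with its 95% interval for each of the 33 genes, grouped by role and coloured by it. The points lie between -0.35 (Cmya5) and 0.50 (Synpo2l), and the intervals of 7 genes leave out 0, namely Synpo2l, Flnc, Ldb3, Pdlim5 and Des above it and Myot and Cmya5 below it.

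The 7 genes with an unadjusted p under 0.05 were examined without cmGch1 KO replicates 2 and 3. Their log2 fold changes then were 0.40 for Synpo2l, 0.24 for Flnc, 0.11 for Ldb3, 0.10 for Pdlim5, 0.16 for Des, -0.43 for Myot and -0.29 for Cmya5, each with the sign it had over all 12 libraries. The lowest adjusted p among them was that of Myot (0.0985 by edgeR). An unadjusted p under 0.05 remained for Synpo2l (0.0144) and Myot (0.000666), and not for Des (0.112), Pdlim5 (0.253), Flnc (0.0916), Ldb3 (0.15) and Cmya5 (0.129). The highest cmGch1 KO levels of Pdlim5, Flnc, Synpo2l, Ldb3 and Myot were those of replicate 2.

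**Figure D3:**
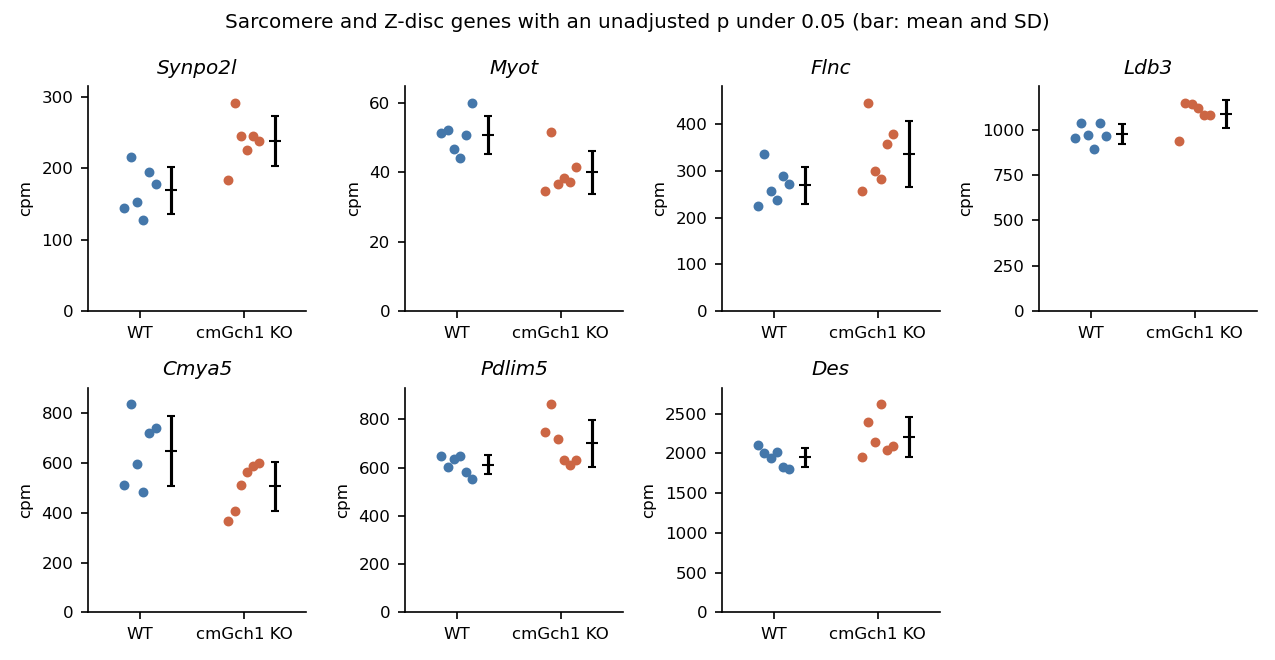
Levels in cpm of the 7 genes with an unadjusted p under 0.05, with 1 point per library, and the mean and SD of each genotype as a bar beside them. The genotypes overlap in each panel, least for Synpo2l and Ldb3, where 5 of 6 cmGch1 KO libraries lie above the highest WT library, and for Myot, where 5 of 6 lie below the lowest.

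The levels of long and of short transcripts varied in opposite directions between libraries of the same genotype. For each library, the slope of the centred log2 cpm of the 33 genes on the log10 of their exon length was computed, together with the same slope over the 11195 tested genes that had a length. In WT the slopes of the 33 genes ran from -0.42 (replicate 4) to 0.33 (replicate 2) log2 units per 10-fold length, and in cmGch1 KO from -0.29 (replicate 1) to 0.45 (replicate 5). The 33 genes and all tested genes had a slope of the same sign in 12 of 12 libraries. WT replicates 1, 3 and 4 and cmGch1 KO replicates 1, 2 and 3 had slopes below 0, that is less transcript of long genes than of short ones relative to the mean library. The genotypes did not differ in this slope beyond their spread, over the 33 genes (two-sided exact permutation p = 0.729) or over all tested genes (two-sided exact permutation p = 0.933).

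The 6 shortest genes of the set, Tcap, Tnnc1, Cryab, Fhl2, Myl2 and Lmod2, span 948 to 1976 exon bases, and the 6 longest, Flnc, Palld, Myom1, Cmya5, Nebl and Ttn, span 9402 to 116825. In WT replicate 1 the median of the short genes was 0.16 above their mean over libraries and that of the long genes 0.32 below it (median -0.32, log2 cpm). In WT replicate 2 the same medians were -0.15 and 0.28, and in cmGch1 KO replicate 5 they were -0.18 and 0.23. The medians of the long genes in WT replicates 1 and 2 were 0.60 apart.

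**Figure D4:**
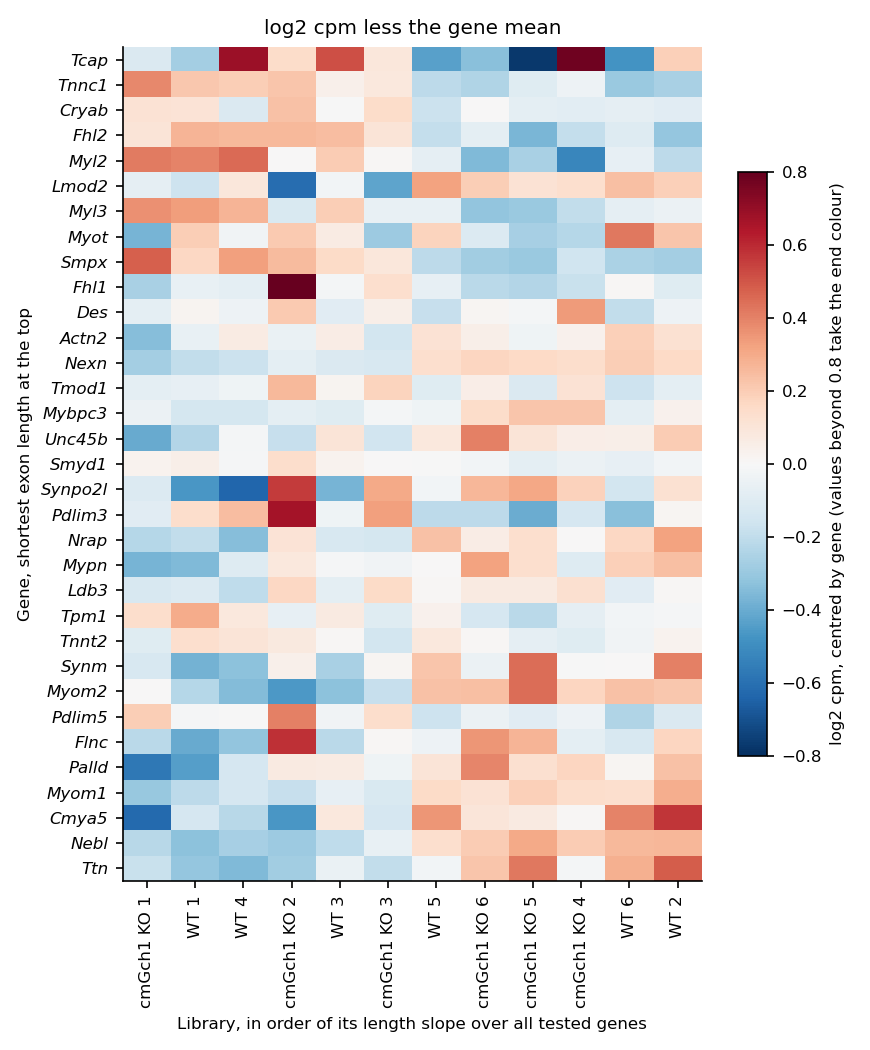
Log2 cpm of the 33 genes less the mean of each gene, with the genes in rows from the shortest exon length (Tcap, 948 bases) to the longest (Ttn, 116825 bases) and the 12 libraries in columns by their length slope over all tested genes. Short genes such as Tnnc1 and Myl2 go from red to blue from left to right and long genes such as Nebl and Ttn from blue to red, with both genotypes at either end.

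Because of this pattern, a fit with the length slope of each library as a covariate was added after the data were seen. The standard error became smaller for 32 of the 33 genes, all but Tcap, and its median went from 0.12 to 0.06. The standard errors over all tested genes in that fit are not given here. In that fit 15 of the 33 genes had an unadjusted p under 0.05, where 21.1% of all tested genes did, and 2 passed the FDR, where 5.18% of all tested genes did. In the fit on genotype alone these shares of all tested genes were 11.5% and 1.12%, so the gain was not particular to the 33 genes. Cmya5 had a log2 fold change of -0.37 (SE 0.04, edgeR adjusted p = 0.00059, with a range from 0.00059 to 0.885 over the 25 alternatives). Synpo2l had 0.50 (standard error 0.10, adjusted p = 0.0134 by edgeR). The fold changes themselves hardly moved, from -0.35 to -0.37 for Cmya5 and from 0.50 to 0.50 for Synpo2l. Among the others Myl2 (-0.21) and Actn2 (-0.17) had adjusted p-values of 0.0519 each, and Myot (-0.35) 0.0531, by edgeR. The surrogate variable of the other adjusted fit had the opposite sign to the length slope in every library. They were 0.388 and -0.362 in WT replicate 1, and 0.499 and -0.446 in cmGch1 KO replicate 1. The fits with either covariate are therefore closely related.

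**Figure D5:**
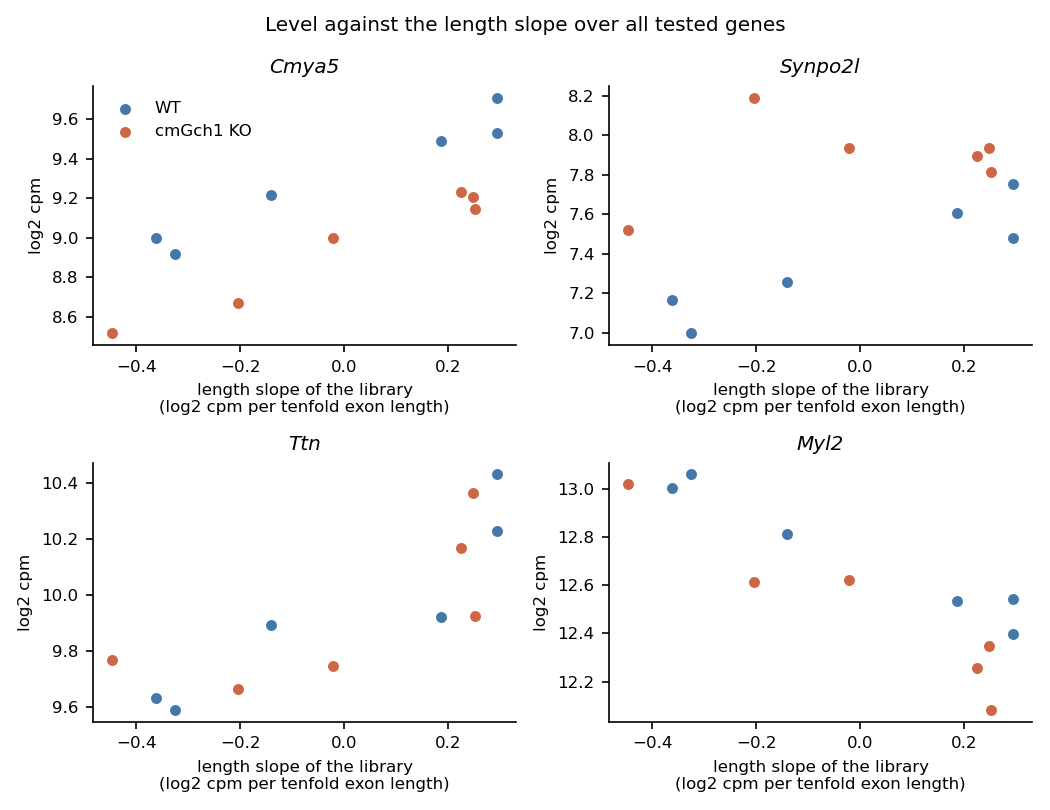
Log2 cpm of Cmya5, Synpo2l, Ttn and Myl2, chosen after their values were seen, against the length slope of each library over all tested genes (log2 cpm per 10-fold exon length), with 1 point per library. Cmya5 and Ttn are higher and Myl2 lower in libraries with a higher slope in both genotypes, and at like slopes the cmGch1 KO points lie below the WT points for Cmya5 and above them for Synpo2l.

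A list of 67 other contractile, Z-disc and costamere genes was examined in the fit on genotype alone, of which 60 were tested. Past the FDR were 2, beside 1.12% of all tested genes, both higher in cmGch1 KO hearts. Ankrd1, a stretch-responsive ankyrin repeat protein that binds titin, had levels of 911, 1085 and 1571 cpm in WT and 2087, 2560 and 3112 cpm in cmGch1 KO libraries (log2 fold change 1.13 ± 0.14 SE, edgeR adjusted p = 0.00098). Acta2, smooth muscle α-actin, had levels of 113, 120 and 144 cpm and 162, 189 and 242 cpm (log2 fold change 0.66 ± 0.11 SE, edgeR adjusted p = 0.00672). Ankrd1 passed the FDR in all 25 alternatives and Acta2 in 24, the exception being the fit without the Xist-positive libraries (adjusted p = 0.0506 by edgeR, the highest of a range from 2.35e-06). Neither gene overlapped between the genotypes. Such a separation was shown by 3 of the 60 genes and 0 of the 33, beside 1.87% of all tested genes, and the difference between the lists was not tested. The median log2 fold change of the 60 genes was 0.01, and 12 of them had an unadjusted p under 0.05, 8 above and 4 below 0, beside 11.5% of all tested genes.

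The next genes of that list by p did not pass the FDR in the fit on genotype alone. They were Pdlim1, another PDZ-LIM protein, with a log2 fold change of 0.25 and no overlap between the genotypes (adjusted p = 0.0924 by edgeR), skeletal α-actin Acta1 with 0.78 (adjusted p = 0.118), Pdlim4 with -0.34 (adjusted p = 0.126), the nebulin gene Neb with 0.50 (adjusted p = 0.227), the ubiquitin ligase gene Trim63 with -0.24 (adjusted p = 0.233) and the light chain gene Myl1 with -0.62 (adjusted p = 0.248). With the length covariate, as with 1 surrogate variable, Pdlim1, Pdlim4, Acta1 and Trim63 passed too, 6 of the 60 in each, beside 5.18% and 5.67% of all tested genes. Both fits adjust for closely related trends and are not separate support. Over the 25 alternatives Acta1 passed in 5 (adjusted p from 0.0125 to 0.365), Pdlim1 in 3 (0.00813 to 0.494), Pdlim4 in 3 (0.0256 to 0.534) and Trim63 in 2 (0.0447 to 0.787). Neb and Myl1 passed in 0, with adjusted p from 0.0609 to 0.564 over the 24 in which Neb was tested and from 0.0762 to 0.746.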

How the data were processed

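Whole left ventricle RNA was analysed for 6 WT and 6 cmGch1 KO mice, with genotypes and replicate numbers from the sample labels. The methods state that the authors made paired-end libraries with dUTP, aligned reads with HISAT2 and counted them with featureCounts; the submitters' processing notes name HISAT2, SAMtools and build GRCm38. The strand setting, the annotation and tool versions are not given in the sources used here. The authors deposited raw counts per Ensembl gene, without normalization, and a table of normalized values on a log2 scale, whose tool is not named. No column was left unused for want of a sample (0 columns). Symbols for 26582 of the 26921 identifiers (98.7%) came from GENCODE M21.

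Counts were analysed in R 4.3.3 with edgeR 4.0.16. A gene was tested where 6 or more libraries had a cpm over 3 (11225 genes), TMM factors scaled the libraries, genotype was the only term of the quasi-likelihood fit, and p-values were adjusted by Benjamini-Hochberg over all tested genes at an FDR of 0.05. The standard error is the absolute log2 fold change divided by the square root of F, and 95% intervals use the fit's t distribution. Single values per library were compared by exact permutation tests over 924 arrangements, two-sided and unadjusted. RPKM is cpm per kb of the union of annotated exons. Depth was 19921398 to 37917806 counts per library. In the 30 pairs within a genotype, chi-square divided by its degrees of freedom was 12.49 to 78.89, so no library was a copy of another. The labels do not say more of the replicates than their numbers, so p-values measure the spread between these libraries. The fitting code was tested on simulated data.

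The alternatives were the size factors of DESeq2 1.42.0 and library size alone, leaving out mitochondrial genes, the Wald test of DESeq2, 3 other filters, a block for the replicate number, a covariate of sex-linked expression, 1 surrogate variable from sva 3.50.0, limma 3.58.1 on the deposited log2 values, and leaving out the Xist-positive libraries together or each library in turn; the length covariate was added after the data were seen. The 33 genes and the other lists were chosen with earlier results of these data known. Each of the 33 genes is named; values per library are given for those with an unadjusted p under 0.05, the 3 highest and 3 lowest per length and the 3 most variable in WT, and from the list of 67 other genes those past the FDR and the next 6 by p. Values of genes beyond this rule were added after they were seen.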

Additional observations from a re-analysis of the deposited data

Results flagged for a closer look

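Over 68 groups of 6 values (each of the 33 genes, and their share of all counts, in each genotype), 5 held a library whose gap to the nearest of the others, divided by the range of the group, exceeded Dixon's 95% critical value for 6 values. Chance alone gives this in about 1 in 20 groups. Myl3 was at 6751 cpm in cmGch1 KO replicate 1, with 4209 to 5035 cpm in the other 5 libraries, and Ldb3 was at 937 cpm in the same library, with 1078 to 1148 cpm in the others. Tpm1 was at 10560 cpm in WT replicate 1 (others 8470 to 9108 cpm). Both libraries have the lowest length slopes of their genotypes over all tested genes, -0.45 in cmGch1 KO replicate 1 and -0.36 in WT replicate 1. Over the 33 genes the lowest WT slope was that of replicate 4 (-0.42), beside -0.30 in replicate 1. A part of the slope in these levels was not tested. Synm was at 17.8 cpm in cmGch1 KO replicate 5 (others 11.9 to 13.5 cpm). Fhl1 was at 259 cpm in cmGch1 KO replicate 2 (others 103 to 136 cpm), 1 of the 2 libraries with Xist over 10 cpm.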

How the results depend on the processing

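Over 25 alternatives, 17 of the 33 genes kept the sign of the fold change in all and 16 did not, and of the 10 single values that newly passed the FDR 5 were of Synpo2l. Over all tested genes, 76 were higher and 50 lower. The counts of higher genes were 116 with library size alone, 218 with the Wald test of DESeq2, 40 with sex-linked expression as a covariate, 305 with 1 surrogate variable, 16 without the Xist-positive libraries and 283 with the length covariate. Those of lower genes were 155 (DESeq2), 24 (sex-linked expression), 331 (surrogate variable), 18 (without the Xist-positive libraries) and 299 (length covariate). With library size alone 23.7% of the calls were lower, beside 39.7% with TMM. Leaving out each library in turn gave 44 to 111 higher and 28 to 96 lower genes, the highest of both without cmGch1 KO replicate 1. The cause was not tested.

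Of the 33 genes 0 passed the FDR, 1 with DESeq2 (Synpo2l), 3 with the surrogate variable (Synpo2l, Myl3 and Cmya5) and 2 with the length covariate (Synpo2l and Cmya5). The surrogate variable and the length slope had opposite signs in every library, so their fits are not separate support. Leaving out libraries gave 0 to 1, which was Synpo2l without cmGch1 KO replicate 1 (adjusted p = 0.039 by edgeR) and Myot without cmGch1 KO replicate 2. In each case the library left out was the exception of its group, the rest of which lay beyond the WT range. These fits are therefore not separate support either. The median fold change was 0.02, 0.0951 with library size alone, which moved the median of all genes to 0.07, and -0.01 to 0.06 on leaving out libraries. The difference in the share of counts, 0.0278 percentage points, was -0.1107 without mitochondrial genes, -0.1128 without the Xist-positive libraries and -0.0611 to 0.1157 on leaving out libraries, below 0 without WT replicate 5 (-0.0106), WT replicate 6 (-0.0224) or cmGch1 KO replicate 2 (-0.0611).

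With the replicate block 112 genes were higher and 76 lower, and 2 of the 33 passed, Flnc (0.31, adjusted p = 0.0378 by edgeR) and Synpo2l (0.51, adjusted p = 0.0128). Same-numbered libraries correlated in their deviations by 0.676, -0.095, -0.078, -0.128, 0.401 and 0.509 for replicates 1 to 6, and only for replicates 1 and 6 was each library closest to its own number, so the numbers were not taken to pair the libraries. With 6 libraries a genotype, the 95% interval reached beyond 1.5-fold for Tcap, Flnc, Synpo2l, Cmya5 and Fhl1.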

Other observations

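Atrial transcripts differed between libraries of this ventricular tissue. The 5 atrial markers Sln, Myl4, Myl7, Bmp10 and Nppa summed to 74.3 to 547 cpm in WT and 246 to 742 cpm in cmGch1 KO libraries (two-sided exact permutation p = 0.0281). Nppa gave most of the difference: without it the other 4 summed to 103 ± 101 cpm in WT, against 109 ± 55.9 cpm in cmGch1 KO libraries (SD, n = 6; two-sided exact permutation p = 0.911). WT replicate 4 had the highest level of the atrial light chain Myl7, 120 cpm, beside 3.24 cpm in WT replicate 6. The ventricular light chain Myl2 was also highest in WT replicate 4, at 8535 cpm. Endothelial markers summed to 1154 ± 72.5 cpm in WT, against 1131 ± 51.7 cpm in cmGch1 KO hearts (SD, n = 6; two-sided exact permutation p = 0.489), and those of smooth muscle and pericytes to 966 ± 43.1 cpm and 994 ± 67.8 cpm (two-sided exact permutation p = 0.407). The latter sum holds Acta2 (126 ± 14.2 and 199 ± 31.9 cpm), the only 1 of its 7 markers past the FDR, beside 1.12% of all tested genes. Acta2 differed by more than the sum did, so the other markers of that list together were lower on average in cmGch1 KO libraries. That remainder was not tested.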
